A study of Mus musculus with 6 samples.

Results

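Chromatin accessibility in mouse kidney was examined at 7 genes that carry sodium and bicarbonate across the tubule epithelium, namely Slc9a3, Slc4a4, Car2, Car4, Car12, Atp1b1 and Fxyd2. For each gene, the accessible intervals were those that overlapped the span from 3 kb upstream of the gene start to the gene end in GENCODE M39 on GRCm39. This gave 224 of the 279569 intervals in the peak call. The call was made on ATAC-seq, which reads out open chromatin from where a transposase can cut the DNA and tag it for sequencing.

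The labels give 3 WT libraries from batches 1, 1 and 2 and 3 libraries from mice with tubule-specific deletion of Acly (Acly cKO, Acly fl/fl crossed to Ksp-Cre) from batches 4, 4 and 5. All 6 came from kidney and carried the treatment label Control, and the methods name the cortex as the tissue taken. Ksp-Cre is driven by the Cdh16 promoter and recombines in tubular epithelium from the proximal tubule to the collecting duct, so other kidney cells keep Acly, and the WT controls were littermates with the floxed alleles and no Cre. The sources used here give no age for the animals of these libraries in particular. The peaks analysed here came from a single call with no value for any one library, so no replicate error, no test and no WT against Acly cKO comparison could be made. The batches also divide by genotype, and their parts cannot be told apart. The study's methods list further WT libraries deposited earlier, and whether those entered the pool is not shown by the peak list. Every value below describes the pooled tissue, in which many cells of a type and much open chromatin per cell cannot be told apart.

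In the proximal tubule, filtered bicarbonate is recovered by a relay. The apical exchanger NHE3 (Slc9a3) secretes protons, carbonic anhydrases on the membrane and in the cytosol interconvert bicarbonate and carbon dioxide, and the basolateral cotransporter NBCe1 (Slc4a4) returns bicarbonate to the blood. The gradient for the relay is kept by the Na,K-ATPase, whose beta 1 subunit is encoded by Atp1b1 and whose gamma regulator is encoded by Fxyd2.

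All 7 genes had an interval within 1 kb of the canonical start, against 75.8% of 21757 protein-coding genes. Fold enrichment is the height of the read pile-up at a summit over the caller's background, and each interval takes the value of its highest summit. The interval over the start reached at least 10-fold at 7 of the 7 genes, against 59.4% of all protein-coding genes, and at least 20-fold at 4 of the 7, against 49.3%. At Car4 the highest summit of that interval lay more than 1 kb from the start, and within 1 kb the highest was 7.01-fold. These genes were picked by name, so the shares describe them and carry no test. The start values ran from 11.7-fold at Car12 to 71.4-fold at Atp1b1, with a median of 21.3-fold. The median over the 16499 genes with such an interval was 30.1-fold and the quartiles were 12.4-fold and 48.3-fold, so the typical gene of the relay did not stand above the typical gene.

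In descending order, the start values were 71.4-fold for Atp1b1, 35.7-fold for Car2, 27.7-fold for Slc4a4, 21.3-fold for Slc9a3, 18.9-fold for Fxyd2, 16.7-fold for Car4 and 11.7-fold for Car12. The Atp1b1 value exceeded 93.2% of the genes with a start interval, Car2 58.3%, Slc4a4 46.2% and Car12 24.0%. Every fold enrichment in the call was a whole multiple of 0.0655 (all 749750 summits within 0.01 of a step), which is what a height counted in whole reads over a single background gives. Reading 1 step as 1 read gives 1090 steps at Atp1b1 and 178 at Car12. The exact Poisson 95% intervals, which cover counting error only, were 67.2 to 75.7 for Atp1b1, 32.8 to 38.9 for Car2, 25.1 to 30.5 for Slc4a4 and 19.1 to 23.8 for Slc9a3. They overlapped between Slc9a3 and Fxyd2 (16.7 to 21.2) and between Fxyd2 and Car4 (14.7 to 18.9), while Car12 (10.0 to 13.5) lay below Car4. The spread between libraries, which would be added to this, is unknown. The Poisson intervals here and below also make no allowance for each value being picked as the highest of several summits or intervals.

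**Figure D1:**
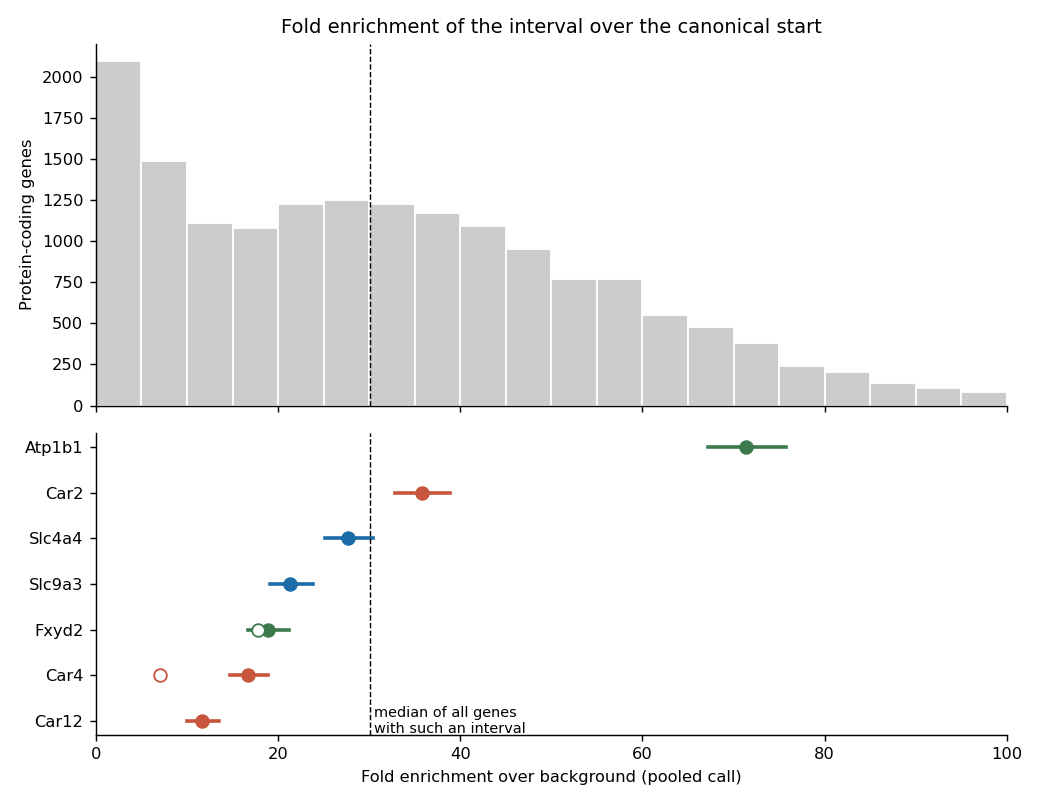
Top, the number of protein-coding genes by fold enrichment of the interval over the canonical start, in bins of 5 (95 genes at 100 or more are not drawn). Bottom, the 7 genes on the same axis, with filled points for the interval's highest summit, lines for the exact Poisson 95% interval of counting error and open points for the highest summit within 1 kb of the start where that differs; Atp1b1 at 71.4 and Car2 at 35.7 lie right of the dashed median of 30.1 and the other 5 genes lie left of it.

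The genes also differed away from the starts. The strongest interval of the region lay over the canonical start at 3 of the 7 genes (Car2, Car4 and Atp1b1), against 70.1% of the 18102 protein-coding genes with any interval. At Slc9a3, Slc4a4, Car12 and Fxyd2 the strongest interval lay more than 1 kb from the canonical start, with its summit inside the gene. At Fxyd2 that interval also ran past the gene end, and its summit lay 48 bp from the first of a group of other Fxyd2 starts. The split is by interval and not by summit. The strongest summits of Car2 and Car4 also lay inside the gene, 371 and 2324 bp downstream of the canonical start. An interval of at least 10-fold more than 1 kb from any annotated start was found at 4 of the 7 genes, with 11 such intervals at Slc4a4, 3 at Car12, 2 at Slc9a3 and 2 at Car2, against 21.2% of protein-coding genes. Long genes have more room for such intervals, and the Slc4a4 region is 356170 bp long against a median of 22173 bp. Taken one by one, the intervals were ordinary in height. Of the 224, 29 reached 10-fold, against 13.3% of all intervals in protein-coding gene regions (12.9% here), and their median of 2.49-fold equalled the 2.49-fold of all such intervals.

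Intervals covered a larger share of each region than in at least 74.6% of protein-coding genes. They took up 99.0% of the Atp1b1 region, 98.9% of Fxyd2, 88.6% of Car2, 67.6% of Slc9a3, 47.2% of Car4, 47.1% of Car12 and 43.0% of Slc4a4, where the median over all protein-coding genes was 16.7% and the upper quartile 43.7%. Atp1b1 and Fxyd2 were each spanned by just 2 intervals, of 7878 and 24265 bp and of 10286 and 13838 bp, against a median width of 434 bp over the whole call. Slc4a4 held 164 intervals, Slc9a3 26, Car12 21, Car2 5 and Car4 4. Per 10 kb of region this was 4.60 at Slc4a4 and 5.08 at Slc9a3, against 0.824 at Atp1b1, 1.42 at Fxyd2 and a median of 1.86 over all protein-coding genes.

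**Figure D2:**
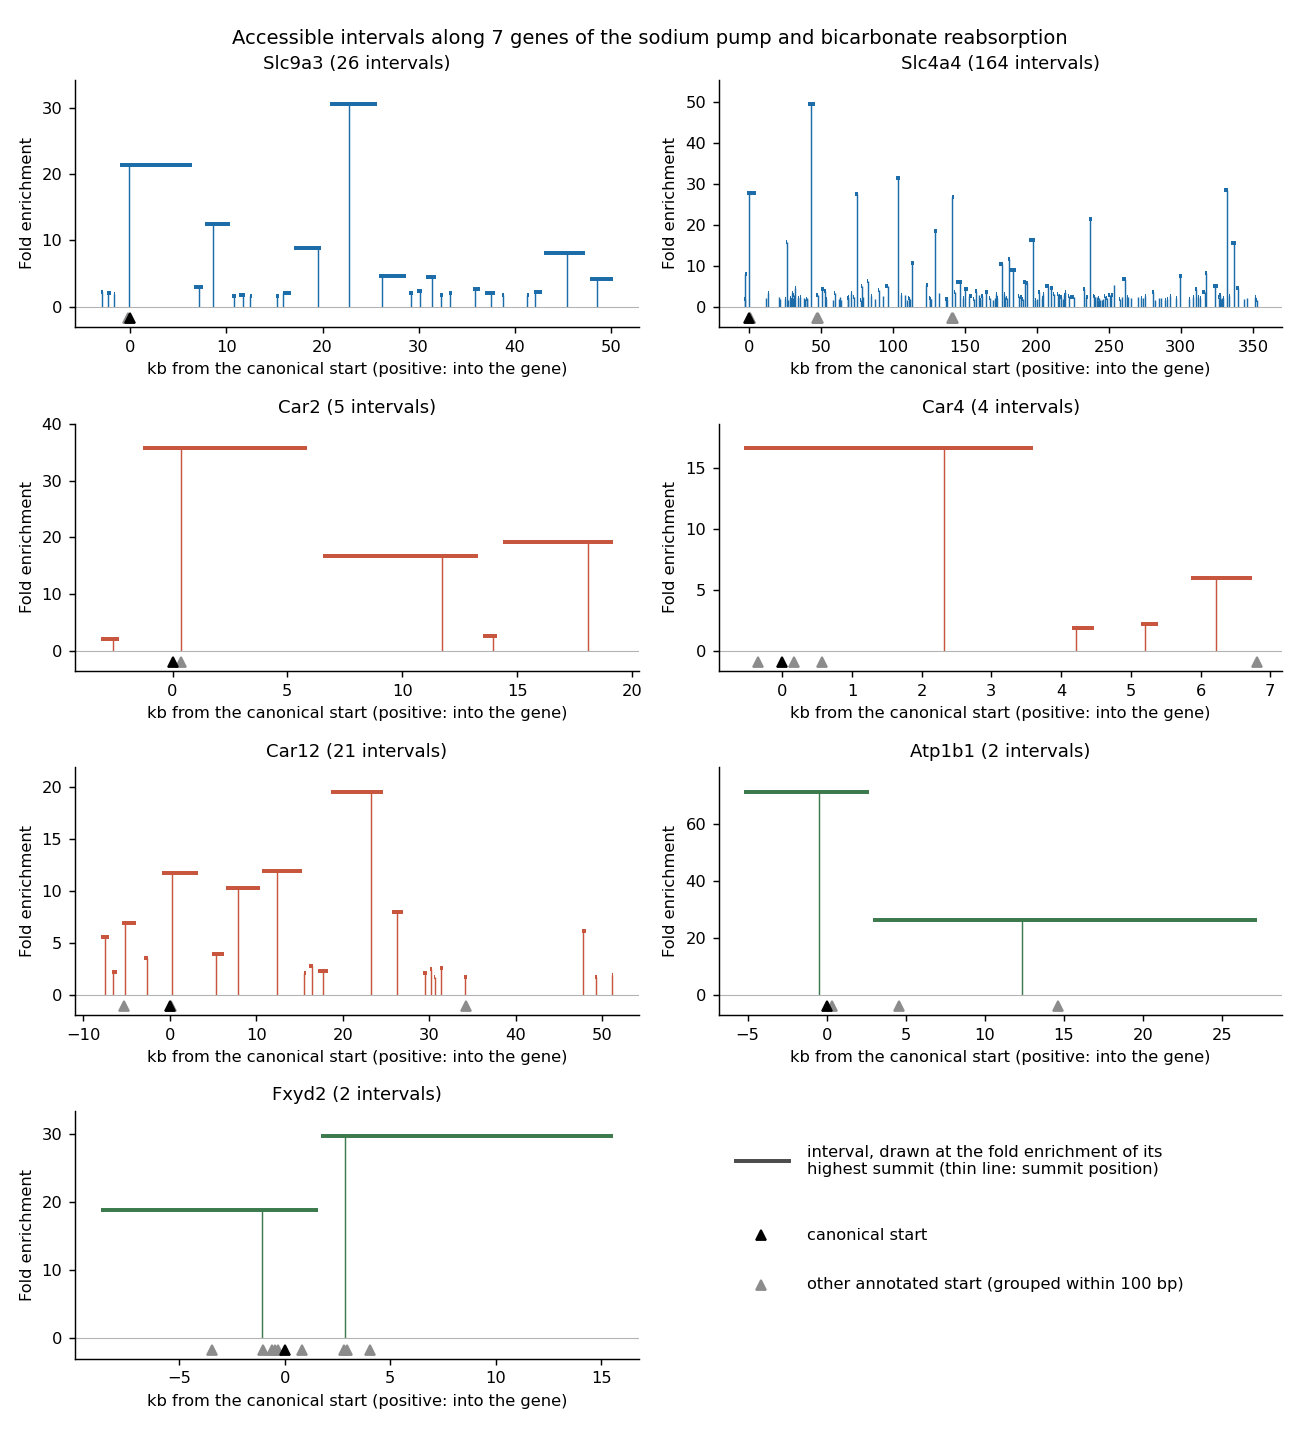
Each horizontal bar is an accessible interval, placed by its distance in kb from the canonical start (positive into the gene) and drawn at the fold enrichment of its highest summit, whose position is the thin vertical line; triangles mark annotated starts. The strongest bar sits in the first intron at Slc9a3 (30.6) and Slc4a4 (49.5) and in the second intron at Car12 (19.5), while 2 wide bars cover 99.0% of the Atp1b1 region and 98.9% of the Fxyd2 region.

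Apical proton secretion by NHE3 starts at Slc9a3 (ENSMUSG00000036123, chr13:74269360-74317561, + strand). Its start interval spanned 7466 bp and its highest summit, 21.3-fold, lay 153 bp upstream of the canonical start and 121 bp downstream of the outermost start. The 120 bases upstream of that outermost start, chr13:74269240-74269359 (+ strand), are shown because no start of the gene lies further out. They hold none of the motifs described further on, whereas the GC box and the hypoxia element matched within 150 bp of the start summit.
Slc9a3, upstream of the outermost start: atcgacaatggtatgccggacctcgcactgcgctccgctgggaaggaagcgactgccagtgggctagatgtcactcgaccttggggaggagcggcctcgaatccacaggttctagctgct
The strongest interval of the gene was not this one. It lay in intron 1, 22734 bp into the gene, at 30.6-fold (Poisson 95% interval 27.9 to 33.5, above the 19.1 to 23.8 of the start), in an interval of 4890 bp that began 20769 bp from the nearest start of Slc9a3. Its 101 bases centred on the summit, chr13:74292318-74292418 (+ strand), were:
Slc9a3, intron 1 summit: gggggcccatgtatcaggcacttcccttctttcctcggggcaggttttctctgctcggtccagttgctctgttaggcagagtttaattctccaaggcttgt
Further intron 1 intervals reached 12.4-fold at 8595 bp and 8.84-fold at 19493 bp, and one with its summit in coding exon 16 reached 8.12-fold and extended over part of Exoc3, a neighbouring gene. The remaining 21 intervals stood at 4.65-fold or less.

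Basolateral exit of bicarbonate through NBCe1 is encoded by Slc4a4 (ENSMUSG00000060961, chr5:89034345-89387514, + strand). NBCe1 is known as a pair of products from separate promoters, with the kidney form made from a start inside the gene and the form of pancreas and other organs from the upstream start. The annotation showed this layout. Transcripts from the canonical start begin their coding sequence 48264 bp downstream, whereas those that start at 141480 and 141591 bp begin theirs at 141686 bp. The canonical start carried 27.7-fold, with the summit 235 bp downstream, and the internal start at 141480 bp carried 26.8-fold, with the summit 82 bp upstream. The value at the internal start lies inside the counting interval of the canonical one, 25.1 to 30.5. Between them, the starts at 47727 and 48046 bp shared an interval of 2.95-fold. The 120 bases upstream of each of the 2 strong starts are shown because the gene's products part there, the canonical one at chr5:89034225-89034344 (+ strand) and the internal one at chr5:89175705-89175824 (+ strand), with capitals for a CCAAT box on the opposite strand:
Slc4a4, upstream of the canonical start: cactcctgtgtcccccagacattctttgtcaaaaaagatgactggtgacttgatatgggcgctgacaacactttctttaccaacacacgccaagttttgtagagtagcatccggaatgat
Slc4a4, upstream of the internal start: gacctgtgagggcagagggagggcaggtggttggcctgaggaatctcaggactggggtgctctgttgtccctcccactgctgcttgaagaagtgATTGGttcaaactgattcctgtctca
The windows reaching 150 bp to either side of these starts differed in base composition, with a CpG observed over expected ratio of 0.454 at the canonical start and 0.161 at the internal start, against a median of 0.599 over 21757 protein-coding genes.

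The highest point of Slc4a4 was neither start. An interval in intron 1 peaked at 49.5-fold (46.0 to 53.2) 43456 bp into the gene, 1750 bp at its nearest from an annotated start of Slc4a4. Other intron intervals reached 31.5-fold at 103950 bp (intron 3), 28.5-fold at 332033 bp (intron 20), 27.4-fold at 75107 bp (intron 3) and 21.5-fold at 236978 bp (intron 8). Of the 164 intervals, 14 reached 10-fold, and 155 had their summit in an intron. The 101 bases around the 3 strongest intron summits, at chr5:89077751-89077851 (+ strand), chr5:89138245-89138345 (+ strand) and chr5:89366328-89366428 (+ strand), were as follows, with capitals for a hypoxia element (CACGT, opposite strand) in the first and an HNF1 match in the third:
Slc4a4, intron 1 summit: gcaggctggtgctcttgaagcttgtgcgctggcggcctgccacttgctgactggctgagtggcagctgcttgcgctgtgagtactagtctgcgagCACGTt
Slc4a4, intron 3 summit: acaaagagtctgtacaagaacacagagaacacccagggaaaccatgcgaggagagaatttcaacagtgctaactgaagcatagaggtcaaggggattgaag
Slc4a4, intron 20 summit: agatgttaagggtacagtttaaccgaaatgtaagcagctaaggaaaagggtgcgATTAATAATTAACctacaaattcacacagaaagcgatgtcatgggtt

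The carbonic anhydrases of the relay sit in different places in the cell. Car2 (ENSMUSG00000027562, chr3:14951317-14967568, + strand) encodes the cytosolic enzyme, Car4 (ENSMUSG00000000805, chr11:84848020-84856879, + strand) an enzyme anchored to the outer face of the membrane, and Car12 (ENSMUSG00000032373, chr9:66615426-66674186, + strand) a membrane-spanning enzyme. By the interval over the start, Car2 was the most open of the 3 and Car12 the least, while by the highest summit within 1 kb of the start Car4 was the least. Car2 had a pair of nearly equal summits at its start, 35.6-fold 30 bp upstream and 35.7-fold 371 bp downstream, in an interval of 7127 bp. The 120 bases upstream of the outermost start, chr3:14951197-14951316 (+ strand), had a GC content of 76.7%:
Car2, upstream of the start: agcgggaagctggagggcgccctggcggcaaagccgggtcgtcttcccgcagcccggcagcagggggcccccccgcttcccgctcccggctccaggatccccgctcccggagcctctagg
Further Car2 intervals reached 16.8-fold at 11727 bp, in coding exon 6, and 19.2-fold at 18091 bp, past the end of the canonical transcript. The bases around the latter summit, chr3:14969368-14969468 (+ strand), held a match to the ERR motif and one to the HNF4 motif, both in capitals:
Car2, summit past the gene end: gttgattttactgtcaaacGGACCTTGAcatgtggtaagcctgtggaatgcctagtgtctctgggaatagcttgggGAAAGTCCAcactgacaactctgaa

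At Car4 the start itself was less open than the value of its interval implies. The interval over the start spanned 4142 bp and its highest summit, 16.7-fold, lay 2324 bp downstream in intron 1, with neighbours of 14.2-fold at 1873 bp and 13.2-fold at 2115 bp. Within 1 kb of the canonical start the highest summit was 7.01-fold, at 370 bp, which placed Car4 last among the 7 genes. The next interval of the gene reached 6.02-fold at 6217 bp. The outermost start lies 346 bp upstream of the canonical one and is annotated only for a transcript that is not protein-coding. The bases upstream of the outermost start, chr11:84847900-84848019 (+ strand), and around the intron 1 summit, chr11:84850640-84850740 (+ strand), held no motif match:
Car4, upstream of the outermost start: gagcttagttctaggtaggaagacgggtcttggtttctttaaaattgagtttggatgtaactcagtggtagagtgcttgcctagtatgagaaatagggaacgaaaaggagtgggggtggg
Car4, intron 1 summit: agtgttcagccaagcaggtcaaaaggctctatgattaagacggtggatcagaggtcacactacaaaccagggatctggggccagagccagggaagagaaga

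At Car12 the canonical start reached 11.7-fold with the summit at 305 bp. Another start 5291 bp upstream carried 6.87-fold, and one 34275 bp downstream carried 1.70-fold, the lowest value in the call. The strongest intervals lay in intron 2, at 19.5-fold (17.4 to 21.9) 23282 bp into the gene, 11.9-fold at 12424 bp and 10.2-fold at 7852 bp. All 21 intervals of Car12 also overlap the annotated span of Aph1b, a gene on the opposite strand, so these intervals cannot be assigned to one of the 2 genes by position. The strongest window held 2 HNF1 matches, at 23270 to 23282 bp and at 23303 to 23315 bp from the canonical start, shown in capitals at chr9:66643949-66644049 (+ strand) below the 120 bases upstream of the canonical start, chr9:66620597-66620716 (+ strand):
Car12, upstream of the canonical start: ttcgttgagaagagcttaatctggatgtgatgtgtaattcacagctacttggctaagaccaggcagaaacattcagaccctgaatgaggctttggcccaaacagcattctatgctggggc
Car12, intron 2 summit: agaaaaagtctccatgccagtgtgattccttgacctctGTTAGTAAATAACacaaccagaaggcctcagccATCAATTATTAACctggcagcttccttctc

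The sodium pump was represented by its beta 1 subunit, which carries the pump to the membrane, and by its gamma regulator. Atp1b1 (ENSMUSG00000026576, chr1:164264678-164285957, - strand) was the most open of the 7 genes. Its start interval held summits of 71.4-fold at 483 bp, 58.9-fold at 223 bp and 55.2-fold at 31 bp upstream of the canonical start, and a further group of 46.2-fold at 2735 bp, 31.7-fold at 3114 bp and 30.6-fold at 3568 bp upstream. The highest summit lay 49 bp from an annotated start of the long noncoding RNA Gm32391, which is read from the opposite strand and has 40 annotated transcript starts in the same interval, and 92 bp from the start of a further noncoding gene, Gm70492. Openness that belongs to Atp1b1 and to these transcripts cannot be told apart here. The 120 bases upstream of the outermost Atp1b1 start, chr1:164285958-164286077 (- strand), have a GC content of 75.8%, with a GC box and a CCAAT box, both on the opposite strand, in capitals:
Atp1b1, upstream of the start: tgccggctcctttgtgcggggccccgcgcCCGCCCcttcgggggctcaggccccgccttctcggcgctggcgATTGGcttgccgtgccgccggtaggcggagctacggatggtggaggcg
The second interval covered the rest of the gene and ran past its end, also overlapping Nme7, and peaked at 26.2-fold in intron 2, 12370 bp from the start at chr1:164273504-164273604 (- strand), with no motif match near the summit:
Atp1b1, intron 2 summit: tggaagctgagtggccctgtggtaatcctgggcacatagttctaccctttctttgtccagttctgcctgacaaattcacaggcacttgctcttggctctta

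Fxyd2 (ENSMUSG00000059412, chr9:45310967-45322004, + strand) has 10 grouped starts, from 3469 bp upstream to 4034 bp downstream of the canonical one, and each lay within 1 kb of one of its 2 wide intervals. The canonical start carried a summit of 17.7-fold 11 bp upstream, and the start at 1015 bp upstream one of 18.9-fold, 58 bp further out. The highest summit, 29.7-fold (27.1 to 32.6), lay at 2835 bp in intron 1 of the canonical transcript, 48 bp from the first of a group of starts at 2787 to 2830 bp that are annotated only for non-coding transcripts of the gene. A summit at 5372 bp reached 24.4-fold. The outermost start, 3469 bp upstream, carried 7.33-fold, and the interval there extended over part of Fxyd6. The canonical start of Fxyd2 was poor in CpG, with an observed over expected ratio of 0.0800. Among the start groups that hold the canonical starts of the 7 genes this was the lowest, against 0.863 at Atp1b1. The 120 bases upstream of the start at 1015 bp, chr9:45313301-45313420 (+ strand), hold the 18.9-fold summit and a GC box in capitals:
Fxyd2, upstream of the start at 1015 bp: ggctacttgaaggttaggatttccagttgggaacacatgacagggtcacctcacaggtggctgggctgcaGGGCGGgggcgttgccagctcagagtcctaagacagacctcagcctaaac

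Starts were also counted over all annotated transcripts, since a gene can be used from several. The transcripts of the 7 genes form 34 groups of starts no more than 100 bp apart from the next. An interval lay within 1 kb of 34 of the 34, against 71.5% of the 72980 grouped starts of protein-coding genes. Starts of the same gene share intervals, and 15 intervals served all 34. The highest summit within 1 kb ranged from 1.70-fold at the Car12 start at 34275 bp to 71.4-fold at Atp1b1. In the Atp1b1 gene, the starts at 4578 and 14636 bp carried 6.68-fold and 11.1-fold, well below the 71.4-fold of the first.

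**Figure D3:**
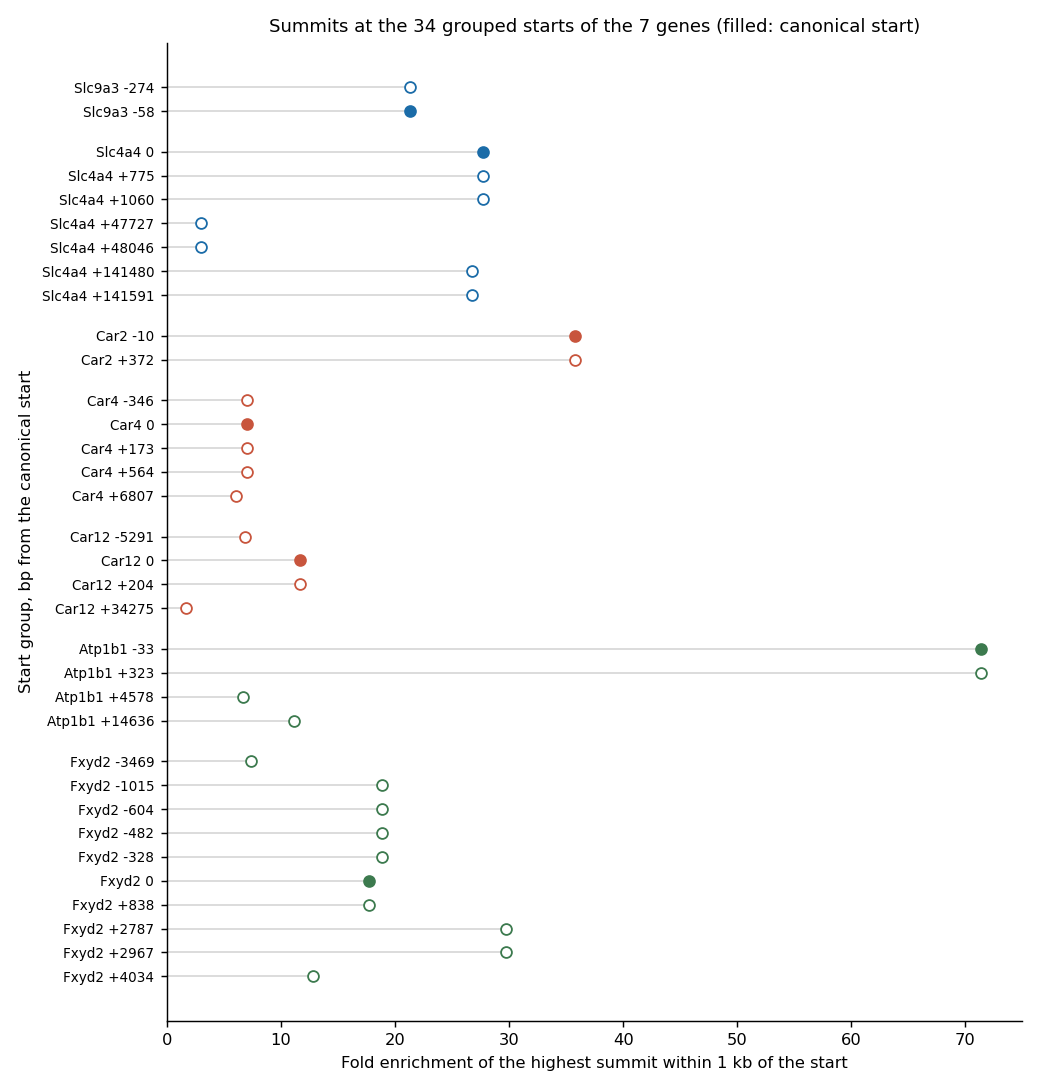
Fold enrichment of the highest summit within 1 kb of each of the 34 grouped starts, labelled by gene and distance in bp from the canonical start; filled points hold the canonical start. The canonical and the internal start (+141480) of Slc4a4 stand at 27.7 and 26.8 with 2.95 between them, and the Fxyd2 starts at +2787 stand above its canonical start at 29.7 against 17.7.

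Among the canonical starts of the 7 genes, the most open were also the richest in CpG. The observed over expected ratio was taken around the outermost start of the group that holds the canonical start. That start lay 33 bp upstream of the canonical one at Atp1b1, 10 bp at Car2 and 58 bp at Slc9a3, and was the canonical start itself at the other genes. The ratio was 0.863 at Atp1b1 and 0.760 at Car2, the first and second in height, and 0.689 at Slc9a3. These lay above the median of 0.599 over the canonical starts of all protein-coding genes. It was 0.487 at Car4, 0.454 at Slc4a4, 0.297 at Car12 and 0.0800 at Fxyd2. Below these the orders parted, with Slc4a4 above Slc9a3 in height but below it in CpG. Fxyd2 was lowest in CpG but above Car4 and Car12 in height. Other start groups also exceeded 0.863, with 1.06 at Atp1b1 (323 bp), 0.902 at Slc4a4 (775 bp) and 0.875 at Car4 (564 bp). The highest summits within 1 kb of these were 71.4-fold, 27.7-fold and 7.01-fold, in the same order.

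Short motifs were searched within 150 bp of the summit of the 3 strongest intervals of each gene, which gave 19 windows because Atp1b1 and Fxyd2 have only 2 intervals each. Both strands were searched. HNF1 was written as GTTAAT, 1 free base and the reverse complement of GTTAAT, with up to 2 mismatches, HNF4 as CAAAGTCCA and ERR as TCAAGGTCA with up to 1 mismatch. The mismatches allowed for the other words are given with them, and none were allowed where none are given. HNF1 and HNF4 are factors of proximal tubule cells, and ERR receptors act on genes of energy metabolism. HNF1 matched 3 of the 19 windows, 1 each at Slc4a4, Car12 and Fxyd2, where 3.22% of all 279569 windows and 7.07% of those of at least 10-fold matched. The matched runs are shown because they carry this result, the Slc4a4 and Car12 ones standing in capitals above as well:
Slc4a4 intron 20, 4 bp after the summit: ATTAATAATTAAC
Car12 intron 2, ending at the summit: GTTAGTAAATAAC
Car12 intron 2, 21 bp after the summit: ATCAATTATTAAC
Fxyd2 intron 1, 63 bp after the summit: GTTAATATTTAAT
HNF4 matched 6 of the 19 windows, against 12.2% of all windows and 14.1% of those of at least 10-fold. The matches were at Slc9a3, Slc4a4, Car2, Car4 and in 2 windows of Car12. The Slc4a4 intron 20 window and the strongest Car12 window held both HNF1 and HNF4. ERR matched 3 (11.4% of all and 9.27% of those of at least 10-fold), 1 at Slc9a3 and 2 at Car2. The ERR and HNF4 words share letters and can match overlapping bases.

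The GC box GGGCGG matched 6 windows (10.1% of all and 33.0% of those of at least 10-fold). With shares in the same order, the TATA box TATAAA matched 4 (11.9% and 8.00%), the hypoxia element ACGTG 4 (15.5% and 20.2%) and the CCAAT box 2 (32.4% and 33.2%). ACGTG overlaps its own reverse complement in CACGTG, so such a run was matched on both strands. The inverted repeat of the NF1 word TTGGC 5 bases apart with up to 1 mismatch (1.79% and 2.48%) matched 0 of the 19. So did the inverted repeat of the steroid receptor word AGAACA 3 bases apart with up to 2 (2.63% and 2.04%), and the CRE TGACGTCA (0.503% and 1.68%). A match is a run of letters and not a bound site. In the RefSeq promoters of GRCm38.p6, 300 bases each, 5 of the 7 genes were matched by symbol with 6 promoters, and HNF1 matched 0 of the 6, against 1.36% of 32851 promoters, while the GC box matched 4, against 35.7%. The TATA box matched 1 promoter, that of Car4, against 13.6%. The hypoxia element matched 2, those of Slc9a3 and Car4, against 19.6%. The entries missing were Car2 and Fxyd2.

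The relatives and partners of the 7 genes were listed by family, 45 genes in all. Of these, 40 had an interval within 1 kb of the start, against 75.8% of all protein-coding genes. At the start, 25 reached 10-fold, against 59.4%, and 18 reached 20-fold, against 49.3%. The median over the 40 with a start interval was 15.5-fold, against 30.1-fold over all protein-coding genes with one. Among the other beta subunits of the pump, Atp1b3 stood at 59.5-fold and Atp1b2 at 12.4-fold, both below the 71.4-fold of Atp1b1, and Atp1b4 had no interval at its start. Of the 6 other FXYD genes, Fxyd4, the collecting duct member, was highest at 13.7-fold, and all 6 lay below the 18.9-fold of Fxyd2.

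Among the surface sodium-proton exchangers, Slc9a8 (43.2-fold), Slc9a5 (37.2-fold) and Slc9a2 (27.6-fold) stood above Slc9a3 (21.3-fold), and Slc9a4 stood below it at 4.52-fold. The scaffold and regulatory partners of NHE3 ranged from 5.83-fold at Chp2 to 60.0-fold at Chp1, with Nherf1 at 40.8-fold. Of the Slc4 family, Slc4a2 stood at 72.4-fold, Slc4a7 at 62.2-fold and Slc4a8 at 32.2-fold, above Slc4a4. Slc4a1, the anion exchanger of red cells and intercalated cells, had no interval within 1 kb of its canonical start. Its region held 4 intervals elsewhere, the strongest at 14.0-fold. The Slc4a2 value came from a summit outside the window, and within 1 kb of its start the highest summit was 17.0-fold. Of the 10 other active carbonic anhydrases, Car5b (43.0-fold) and Car13 (39.5-fold) exceeded Car2, and Car1 and Car6 had no start interval. The inactive relative Car11 had 79.9-fold in its interval but 8.77-fold within 1 kb of its start, and Car8 had 12.6-fold.

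**Figure D4:**
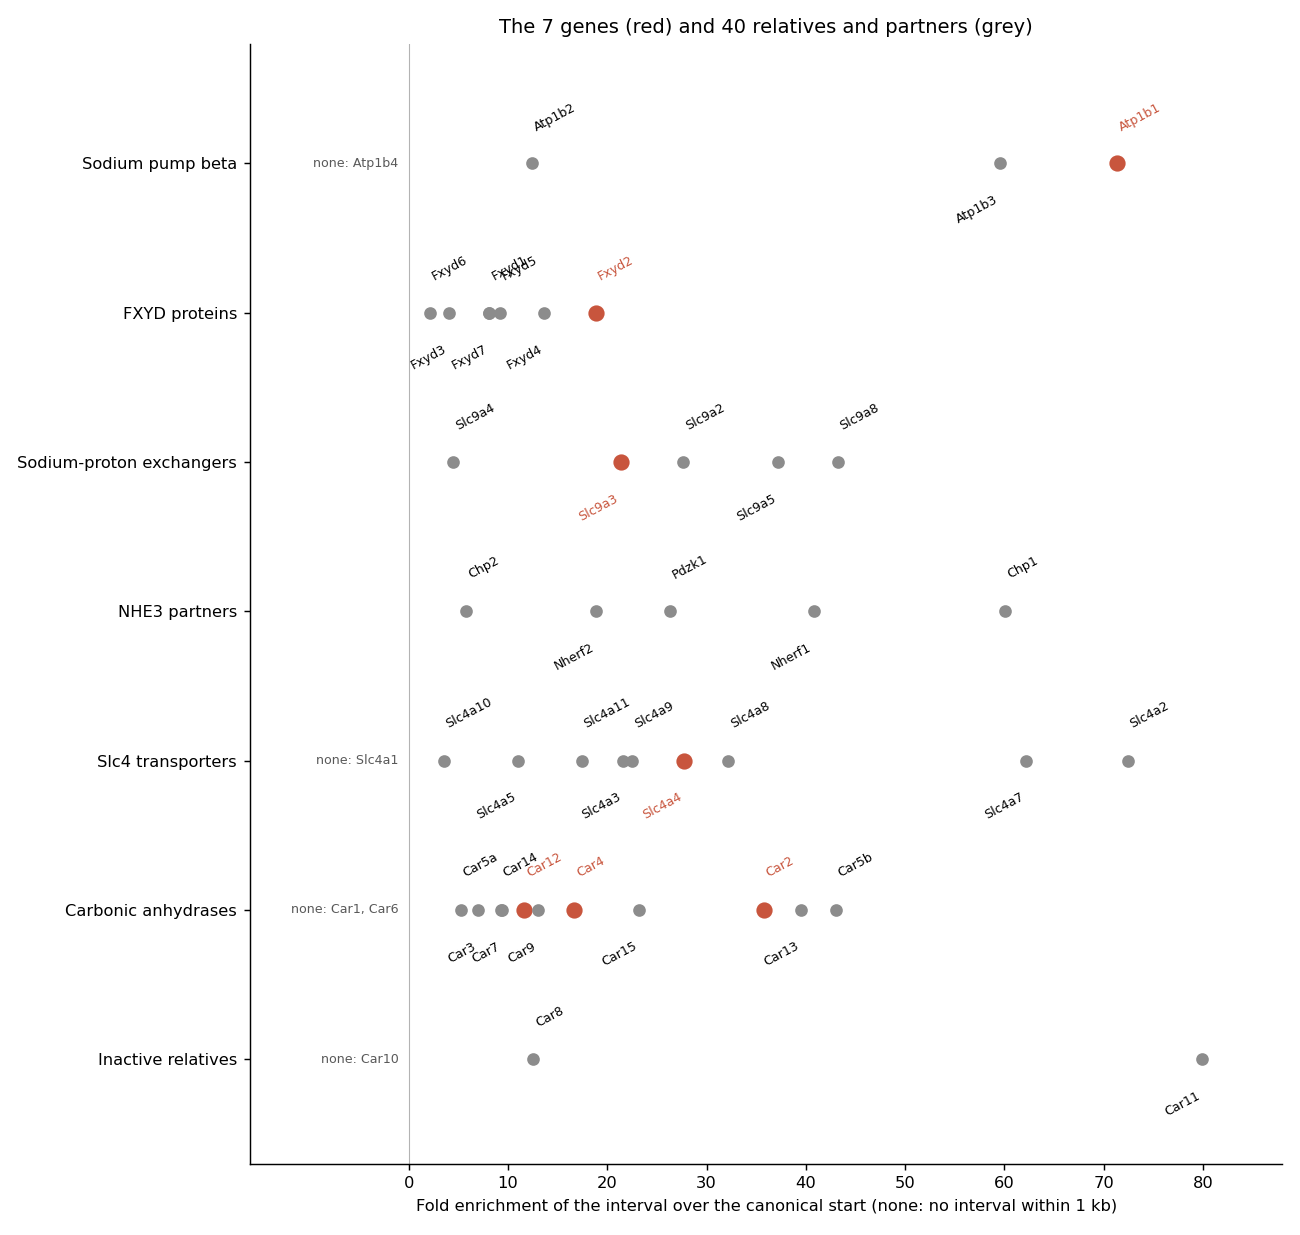
Fold enrichment of the interval over the canonical start for the 7 genes (red) and 40 of their relatives and partners (grey), by family, with genes lacking an interval within 1 kb named at the left. Atp1b1 (71.4) and Fxyd2 (18.9) are the highest of their rows, whereas Slc9a3 (21.3) and Slc4a4 (27.7) lie within theirs.

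Marker genes of the cell types that kidney can hold were set beside the labelled tissue. A start interval is common, at 75.8% of all protein-coding genes, so its presence alone does not identify a cell type. Where present, the median over all protein-coding genes was 30.1-fold, and the median of every marker list lay below this. Start intervals were present at 6 of 6 proximal tubule markers (median 15.7-fold, from 5.30 to 35.1), 4 of 4 thick limb and distal tubule markers (8.45-fold) and 4 of 4 collecting duct markers (13.7-fold). Markers of podocytes (4.52-fold), endothelium (4.12-fold) and stroma (5.63-fold) also had them at 3 of 3 genes each, and immune markers at 2 of 3 (1.90-fold at Ptprc, 27.6-fold at Csf1r, where the highest summit within 1 kb was 3.08-fold, with Cd3e lacking one). Markers of other organs had one at 3 of 6, at no more than 3.40-fold. The part of each cell type in the values of the 7 genes was not tested.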

How the data were processed

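ATAC-seq was done by the authors on kidney nuclei from 3 WT and 3 Acly cKO mice. Per the labels and methods, reads were trimmed with fastp and aligned to mm39 with Bowtie2 2.3.4.3, duplicates were removed, peaks were called with MACS3 3.0.0 and blacklisted regions and non-standard chromosomes were removed with bedtools 2.29.1. The peak list deposited by the authors is 1 pooled call and gives, for each summit, the fold enrichment over background (a linear ratio) and the −log10 q as MACS3 wrote it. The authors deposited the −log10 q of the summits before filtering as well, and 0 of the 835 summits in the 7 regions had been removed. The total depth per library is unknown from these files.

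Here rows with the same chromosome, start and end were joined into 1 interval with the values of its highest summit by −log10 q. Fold enrichment and −log10 q ranked alike, with 1549 distinct pairs for 1549 distinct fold values. Starts are the canonical transcripts of GENCODE M39, strand-aware, with 1-based GRCm39 coordinates. Sequences shown are from GRCm39. Work was done in Python 3.11.15 with pandas 2.3.3, scipy 1.17.1 and pysam 0.24.0, and the overlap and motif functions were tested on simulated data. No model was fitted and no p-value was computed. The genes, lists and rules were chosen with earlier results of these data known. All 7 genes were named, with the start interval, the strongest interval, the 3 next strongest and the strongest interval at each start, and further summits were named after their values were seen. The counting intervals and the value of the highest summit within 1 kb of a start were added after the data were seen. Results for some genes of the lists are not reported here, although the counts over each list include them.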

Additional observations from a re-analysis of the deposited data

How the results depend on the processing

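No paired analysis was possible because the peak call pools the libraries, and for the same reason no replicate could be left out. The 7 of 7 genes with a start interval, the 3 of 7 whose strongest interval lay there, the 34 of 34 starts and the 40 companion genes moved by no more than 1.5 times under stricter q or fold limits, another summit rule or another window, although requiring the highest summit itself inside the window left 5 genes (without Car4 and Fxyd2), 2 genes, 24 starts and 33 companions. Other values changed by the settings' own construction. The 224 intervals became 118 at a q of 1e-05 or less and 49 at 5-fold or more. The median start value, for which any change was counted, went from 21.3-fold to 27.7-fold when the highest summit had to lie in the window and, separately, when the window was widened to 3 kb. Counting only starts of protein-coding transcripts left 22, each with an interval. Of 49 interval counts at single genes, 13 moved by more than 1.5 times. The pooled depth limits low intervals most, since the lowest, at 1.70-fold, is 26 steps high.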
